A study of Rattus norvegicus with 35 samples.

Results

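The genes described here code for the protein parts of plasma lipoproteins and for the protein that loads them with lipid: Apoa1, Apoa2, Apoa4, Apoa5, Apob, Apoc1, Apoc2, Apoc3, Apoe and Mttp. They were chosen by name, and every probe set annotated to 1 of these genes alone was taken, which gave 12 probe sets of 10 genes among the 31099 probe sets and 14217 named genes of the array. Apob and Apoe had 2 probe sets each and the other genes 1. Of the 12, 11 lay above the array's median signal in at least 2 of 35 arrays and were tested. The dimmer probe set of Apoe lay above the median in 0 of 35 arrays and was not tested.

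Expression was measured on Affymetrix rat genome arrays in primary rat hepatocytes, cultured liver cells fresh from the animal, exposed for 72 h by way of the culture medium. Treated cells received a triazole fungicide (myclobutanil, propiconazole or triadimefon) at 10, 30 or 100 uM, or a positive control, phenobarbital (PB) at 200 uM or PCN at 30 uM. The cells they were compared with received the vehicle DMSO at 0.1%. Each of the 12 groups held 3 arrays, which the design text calls biological replicates, except PCN with 2. Each array carried 1 of the codes Rs256, Rs293 and Rs304, and PCN had no Rs256 array. The labels do not say what the codes mark, nor the strain, sex or age of the animals.

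A lipoprotein is a droplet of triglyceride and cholesterol ester under a coat of phospholipid and apolipoproteins. In the hepatocyte the transfer protein Mttp moves lipid onto Apob while Apob enters the endoplasmic reticulum, and the particle leaves the cell as VLDL. Apoa1 and Apoa2 are the main proteins of HDL, which carries cholesterol back to the liver. The small Apoc proteins and Apoa5 set how fast lipoprotein lipase empties the particles, and Apoe is the ligand by which receptors take up what remains.

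In the reference annotation Apoa1, Apoc3, Apoa4 and Apoa5 followed each other on chromosome 8 with 0 genes between neighbours. Apoc1 and Apoe were neighbours on chromosome 1, with 1 gene between Apoc1 and Apoc2. Apob lay on chromosome 6, Mttp on chromosome 2 and Apoa2 on chromosome 13. The promoters of Apoa4 and Apoa5 are printed because the mean changes of these neighbours had opposite signs in every treatment after quantile normalization (with propiconazole at 30 uM both were positive on the values as deposited, 1.02 and 0.165), and those of Apoc1 and Apoc2 because their levels went together across arrays. Each runs 5′ to 3′ from 250 bases before to 50 bases after the gene's start (RefSeq, GRCr8): Apoa4 chr8:55435529-55435828 and Apoa5 chr8:55457621-55457920 on the plus strand, Apoc1 chr1:88478256-88478555 and Apoc2 chr1:88462316-88462615 on the minus strand. Capitals mark 3 motifs searched on both strands: the TATA box TATAAA, the nuclear receptor site AGGTCA, and the E-box CACGTG, to which the glucose-responsive and sterol-responsive factors can bind.
Apoa4: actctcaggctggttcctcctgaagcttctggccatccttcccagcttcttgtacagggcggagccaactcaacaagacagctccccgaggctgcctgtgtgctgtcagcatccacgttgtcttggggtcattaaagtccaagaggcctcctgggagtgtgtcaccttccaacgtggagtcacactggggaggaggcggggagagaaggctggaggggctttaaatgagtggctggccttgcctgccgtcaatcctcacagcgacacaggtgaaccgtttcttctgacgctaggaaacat
Apoa5: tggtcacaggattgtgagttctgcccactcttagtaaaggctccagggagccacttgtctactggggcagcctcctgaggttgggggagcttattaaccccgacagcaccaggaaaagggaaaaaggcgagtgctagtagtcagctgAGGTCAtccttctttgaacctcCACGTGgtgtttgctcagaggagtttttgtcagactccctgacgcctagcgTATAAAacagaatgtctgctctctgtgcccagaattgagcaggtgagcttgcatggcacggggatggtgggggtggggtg
Apoc1: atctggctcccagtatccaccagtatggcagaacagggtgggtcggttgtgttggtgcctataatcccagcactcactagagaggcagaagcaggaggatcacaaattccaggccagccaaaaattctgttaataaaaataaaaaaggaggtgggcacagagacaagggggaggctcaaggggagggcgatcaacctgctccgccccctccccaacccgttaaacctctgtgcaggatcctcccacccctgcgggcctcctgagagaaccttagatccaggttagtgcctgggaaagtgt
Apoc2: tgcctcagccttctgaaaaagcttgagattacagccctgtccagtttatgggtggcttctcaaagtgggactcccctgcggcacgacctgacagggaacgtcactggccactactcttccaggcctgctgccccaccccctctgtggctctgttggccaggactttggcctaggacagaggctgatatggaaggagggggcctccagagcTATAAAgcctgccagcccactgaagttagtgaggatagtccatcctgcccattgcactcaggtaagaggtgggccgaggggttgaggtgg
Apoa5 held TATAAA 30 bases before its start, CACGTG 81 before and AGGTCA 103 before. Apoc2 held TATAAA 40 bases before its start. Of 27457 promoters of the same length, 14.3% held TATAAA, 15.7% AGGTCA and 6.65% CACGTG. The windows of Apoa4, Apoc1 and Apoe held none of the 3 motifs. A match is a description of the letters and was not tied to any factor in these data.

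Values are in units of the deposited scale, a log-like scale whose base is not given in the sources used here, after each array was brought to the same distribution of signals (quantile normalization). They are therefore not folds. Array medians lay between -0.0338 and 0.0223 before normalization and array SDs between 0.646 and 0.941, and the Rs293 array of propiconazole at 30 uM stood apart with the highest SD and the highest maximum (6.72, against 3.41 to 5.04 in the other arrays). All 14 hepatocyte markers with a probe set lay above the array median on average, 13 of them in the top 10%. Their mean level was 2.98 to 3.19 with propiconazole, 3.05 to 3.22 with triadimefon and 3.06 to 3.24 with myclobutanil at 100 uM, against 3.13 to 3.29 with DMSO. Of 14 macrophage markers with a probe set, whose cells also make Apoe, 8 lay below the median, among them Csf1r, Ptprc and Cd163. Their mean level was 0.0981 to 0.224 with propiconazole at 100 uM, against 0.0331 to 0.199 with DMSO, and of the 7 tested Cd68 passed the test there (0.803, SE 0.198, limma adjusted p = 0.00765). With the block Cd14 passed it too (0.392, adjusted p = 0.00182, and adjusted p = 0.623 without the block), as did Cd68 with triadimefon at 100 uM (0.395, adjusted p = 0.00387, and adjusted p = 0.449 without the block). The median change of the 7 was -0.0113 with propiconazole, 0.0398 with triadimefon and 0.0278 with myclobutanil at 100 uM. Over all probe sets it was 0.00366, 0.0047 and 0.00526. Of the hepatocyte markers Ambp, Ahsg and Cyp2c11 fell with propiconazole (-0.343, -0.333 and -0.543) and Ahsg with triadimefon (-0.244), and with the block 4, 2 and 2 of the 14 fell with propiconazole, triadimefon and myclobutanil. Of all probe sets 13.4%, 5.26% and 4.23% were called lower there with the block, and 5.53%, 0.857% and 0.412% without it. With propiconazole 13.7% were called higher with the block and 5.79% without it. Of the markers of stellate cells, endothelium, cholangiocytes and small intestine, 7 of 15, 1 of 8, 3 of 6 and 4 of 5 with a probe set lay above the median on average, and limma called 0 at 100 uM without the block. With it, of the stellate cell markers Dcn (0.138) rose and Vim (-0.274) and Tagln (-0.624) fell with propiconazole, as did the intestinal marker Vil1 (-0.483). Dcn lay below the array median on average, so its rise is one of a dim probe set. The part of these marker lists in the results below was not tested.

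The probe sets of Apoa1, Apoa4, Apoc3 and Apoe were among the brightest on every array, which limits what they can show. Over 35 arrays their median ranks among 31042 probe sets were 8, 8, 12 and 8, and their worst ranks 38, 94, 57 and 19. Quantile normalization gives the same value to the same rank on every array: 4.33 to rank 1, 3.96 to rank 5, 3.85 to rank 10 and 3.58 to rank 50. The step between rank 10 and rank 5 is therefore fixed, whatever the signals were. In the values as deposited these 4 probe sets varied with an SD of 0.5 to 0.581 over arrays, and after normalization with an SD of 0.0553 to 0.146. The 66 probe sets with a mean above 3.5 had a median residual SD of 0.0508 after normalization and 0.485 as deposited. For the 1153 probe sets with a mean of 1.5 to 2, where Mttp lies, the same figures were 0.0779 and 0.169. Whether the detector or the probes were saturated cannot be read from these files.

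Over 23 comparisons (11 treatments against DMSO, 9 pairs of triazoles at the same dose and 3 dose slopes) the 11 probe sets gave 253 tests, of which 1 was called at a limma p adjusted over all 17971 probe sets tested. It was Apoa5, which fell with triadimefon at 100 uM. The arrays of one code resembled each other across groups, and with the code as a replicate block 18 of the 253 tests were called, so both results are given. Over all probe sets the share called in a comparison ran from 0% to 11.3% without the block and from 0% to 27.1% with it. Of these 18 calls, 0 were called on the values as deposited, after median centring or after median centring with a common spread, each with the block, while 17 kept their sign. The p-values measure the spread between these arrays.

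**Figure D1:**
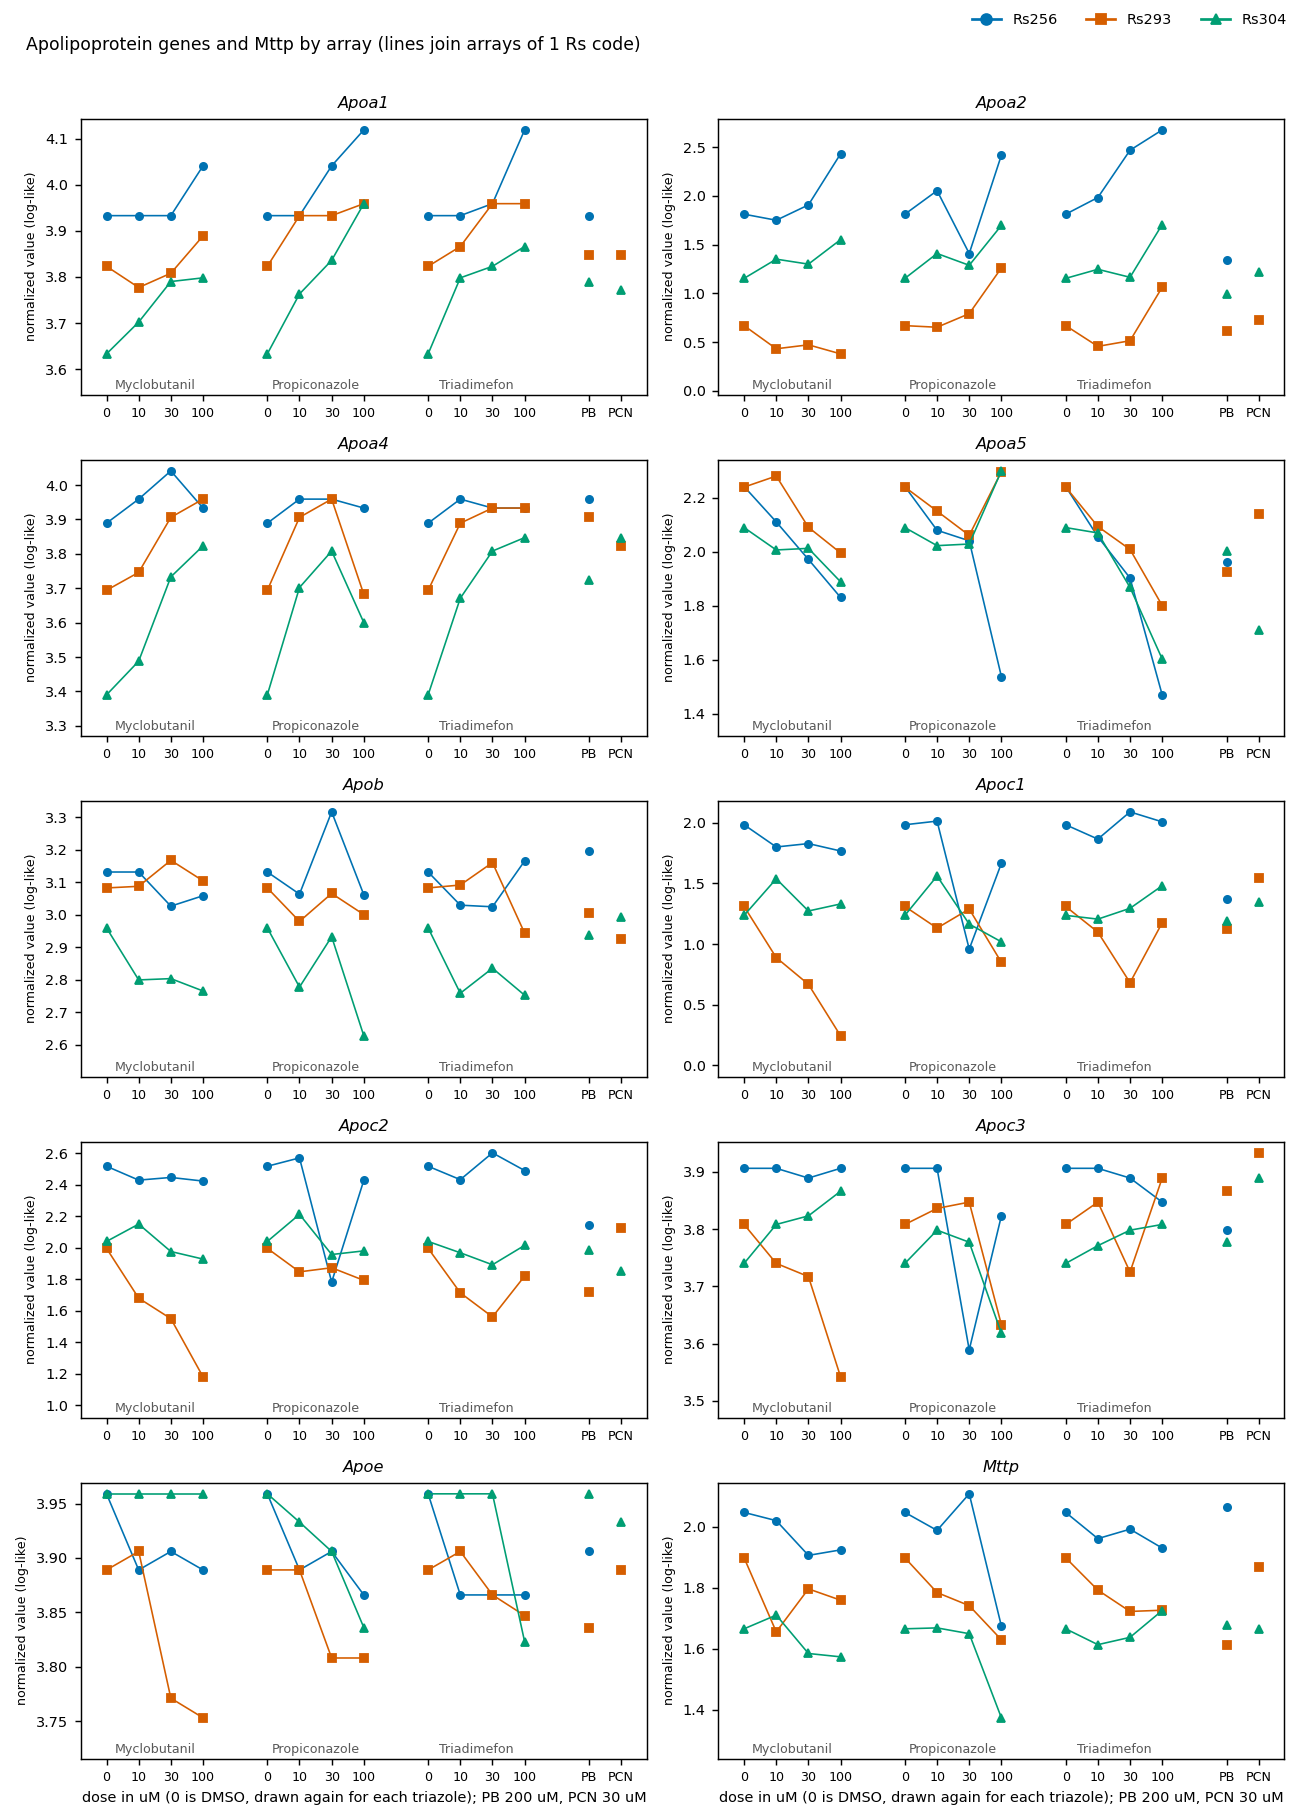
Normalized value (log-like units) of the brightest probe set of each gene on every array. The horizontal axis gives the dose in uM from DMSO (0) to 100 uM for each triazole, then PB (200 uM) and PCN (30 uM); colours and symbols mark the Rs code and lines join arrays of 1 code. Apoa5 at 100 uM triadimefon lies between 1.47 and 1.80, below all 3 DMSO arrays, and for Apoa2 the codes keep 1 order (Rs256, Rs304, Rs293 from high to low) in all 11 groups that hold them.

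Among the regulators of triglyceride breakdown, Apoa5, a liver protein that promotes the action of lipoprotein lipase, was lowest with triadimefon at 100 uM. Its values there were 1.47, 1.80 and 1.60 (Rs256, Rs293, Rs304), against 2.24, 2.24 and 2.09 with DMSO. The groups did not overlap and all 3 codes were lower. Apoa5 fell by 0.566 (SE 0.13, limma adjusted p = 0.0229, and adjusted p = 0.00154 with the block). In these bulk cultures fewer cells that make a messenger and less of it per cell cannot be told apart. Apoa5 was the 1 call among the 11 probe sets, while 1.55% of all probe sets were called in that comparison (0.69% higher and 0.857% lower). The call was lost under the 3 other scalings (changes of -0.454 to -0.503, adjusted p from 0.402 to 0.62), with only the 2 groups in the fit (adjusted p = 0.0867) and without any 1 of the 3 codes (adjusted p from 0.0742 to 0.328). With the block it held without each code in turn (adjusted p from 0.00777 to 0.0403).

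With rising triadimefon dose Apoa5 averaged 2.19 ± 0.0872 with DMSO, 2.07 ± 0.0193 at 10 uM, 1.93 ± 0.0736 at 30 uM and 1.62 ± 0.167 at 100 uM (SD, n = 3 each). The slope was -0.451 per 10-fold dose (SE 0.13, limma adjusted p = 0.277, and adjusted p = 0.0286 with the block). With myclobutanil the means were 2.13 ± 0.138, 2.03 ± 0.0608 and 1.91 ± 0.0837 at 10, 30 and 100 uM (SD, n = 3 each). At 100 uM its arrays, 1.83, 2.00 and 1.89, did not overlap the DMSO arrays, but the change of -0.285 was not called (SE 0.13, adjusted p = 0.468, and adjusted p = 0.126 with the block).

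Propiconazole at 100 uM split Apoa5 by code. Its values were 1.54, 2.30 and 2.30 (Rs256, Rs293, Rs304), against 2.24, 2.24 and 2.09 with DMSO. The difference from the DMSO array of the same code was -0.705 in Rs256, 0.0571 in Rs293 and 0.21 in Rs304. The mean change of -0.146 (SE 0.13, limma adjusted p = 0.571) lay near none of them. Across the 11 treatments the mean change of Apoa5 was negative in 11, and 29 of 32 differences within a code were negative. All of these share the same 3 DMSO arrays, so they are no separate support for each other.

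Apoc2, the cofactor that lipoprotein lipase needs, and Apoc1 and Apoc3, which hold the lipase back, were not called in any of the 23 comparisons, with or without the block. The lowest p of Apoc1 came with myclobutanil at 100 uM, where its values were 1.77, 0.24 and 1.33 (Rs256, Rs293, Rs304), against 1.98, 1.31 and 1.24 with DMSO. The Rs293 array was far lower and the Rs304 array slightly higher, and the groups overlapped. The change was -0.396 (SE 0.37, limma adjusted p = 0.832), and without that Rs293 array it was 0.0389.

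Apoc2 was lowest in the same group. Its values were 2.42, 1.18 and 1.93 with myclobutanil at 100 uM, against 2.52, 2.00 and 2.04 with DMSO, with the same Rs293 array far below the rest. The change was -0.34 (SE 0.295, limma adjusted p = 0.806). Apoc3 was lowest with propiconazole at 100 uM, at 3.82, 3.63 and 3.62, against 3.91, 3.81 and 3.74 with DMSO. Each code was lower there but the groups overlapped, and the change of -0.126 was not called (SE 0.0779, limma adjusted p = 0.358, and adjusted p = 0.208 with the block).

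The 3 Apoc genes moved together from array to array. After the mean of each code was subtracted, Apoc1 and Apoc2 had a Pearson r of 0.926 (Spearman rho 0.839) over 35 arrays, and Apoc1 and Apoc3 0.855 (rho 0.724). Without the 2 arrays farthest from the median of Apoc1 (Rs293 with myclobutanil at 100 uM and Rs256 with propiconazole at 30 uM) r was 0.857 and 0.726. Within Rs256, Rs293 and Rs304 (11, 12 and 12 arrays) r between Apoc1 and Apoc2 was 0.979, 0.955 and 0.554. Between Apoc2 and Apoc3 it was 0.924, 0.781 and -0.194 (0.703 over the 35 code-centred arrays), so in Rs304 that pair did not move together. Moving together was not particular to these 3 genes. Of 10492 other genes, the closest to Apoc1 was Cox8a (r of 0.911) and the closest to Apoc3 was Tmem205 (0.9). These are descriptions over arrays that share codes and treatments, with no test.

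**Figure D2:**
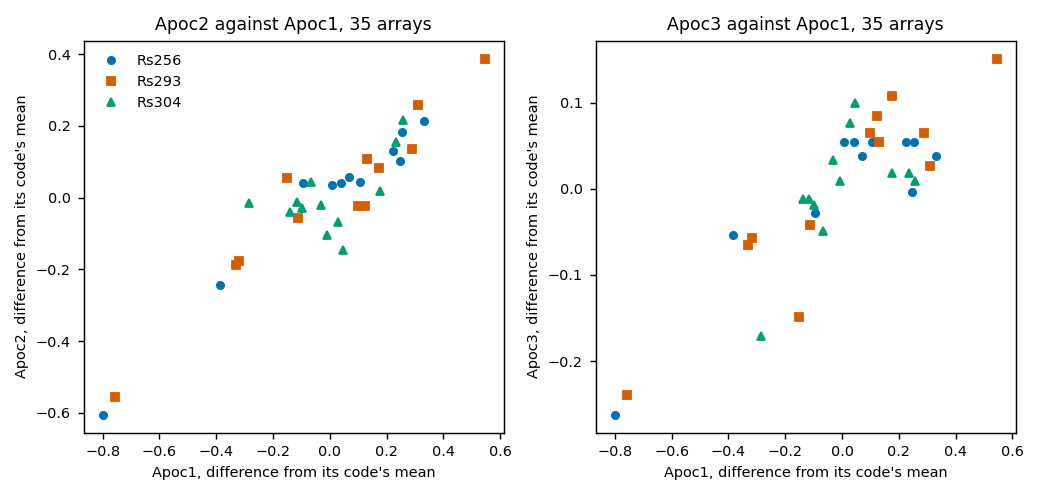
Code-centred level (log-like units, difference from the mean of the array's Rs code) of Apoc2 (left) and Apoc3 (right) against Apoc1, 1 point per array, 35 arrays; colours and symbols mark the code. The 2 points at the lower left of each panel are the Rs256 array of propiconazole at 30 uM and the Rs293 array of myclobutanil at 100 uM.

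Of the HDL proteins, Apoa1, the main protein of HDL and the activator of the enzyme Lcat, was higher on average in all 11 treatments than with DMSO. With propiconazole at 100 uM its values were 4.12, 3.96 and 3.96 (Rs256, Rs293, Rs304), against 3.93, 3.82 and 3.63 with DMSO. The groups did not overlap and all 3 codes were higher, as ranks 3, 5 and 5 of the array against ranks 6, 12 and 38. The change was 0.216 (SE 0.0811, limma adjusted p = 0.0896) and was called with the block (SE 0.0346, adjusted p = 3.68e-05). In that comparison 0 of the 11 probe sets were called by limma without the block (3 had an unadjusted p under 0.05) and 4 with it, while 11.3% and 27.1% of all probe sets were called (5.79% higher and 5.53% lower without the block).

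On the values as deposited the same 6 arrays of Apoa1 read 3.61, 3.39 and 4.18 with propiconazole at 100 uM, against 3.93, 3.55 and 3.49 with DMSO. There the groups overlapped, 2 of 3 codes were lower, and the change was 0.0661 (limma adjusted p = 0.978, and adjusted p = 0.955 with the block). Apoa1 was also called with the block for triadimefon at 100 uM (0.185, adjusted p = 0.000927), myclobutanil at 100 uM (0.113, adjusted p = 0.0423) and propiconazole at 30 uM (0.141, adjusted p = 0.031). Without the block none of these 3 was called (adjusted p = 0.341, 0.737 and 0.957). The call at 30 uM was lost without the Rs293 array that stood apart (adjusted p = 0.083 with the block).

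Apoa2, the other main HDL protein, had the largest positive change of the 10 genes and the widest spread between codes. With triadimefon at 100 uM its values were 2.68, 1.06 and 1.71 (Rs256, Rs293, Rs304), against 1.81, 0.67 and 1.15 with DMSO. The groups overlapped, but each code was higher, by 0.864, 0.394 and 0.552 units. The change of 0.603 was not called without the block (SE 0.547, limma adjusted p = 0.778) and was called with it (SE 0.18, adjusted p = 0.032). Propiconazole at 100 uM gave 2.42, 1.26 and 1.70 and a change of 0.58, with differences of 0.605, 0.591 and 0.544 within the 3 codes (adjusted p = 0.6, and adjusted p = 0.0179 with the block).

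Apoa2 lay below the top ranks, with a median rank of 2940 and a best rank of 366. Its SD over arrays was 0.659 as deposited and 0.635 after normalization. The Rs256 array of triadimefon at 100 uM, at that best rank, was moved from 2.96 to 2.68. On the values as deposited, with the block, the changes were 0.664 for triadimefon (adjusted p = 0.0998) and 0.554 for propiconazole (adjusted p = 0.0865). With myclobutanil at 100 uM the codes did not go one way: its values were 2.43, 0.38 and 1.55, and the differences from the DMSO array of the same code 0.62, -0.289 and 0.397. The mean change of 0.242 was not called with or without the block (adjusted p = 0.485 and 0.947).

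Apoa4, which rides on chylomicrons and HDL and is made by gut and, in rodents, by liver, had its highest mean with propiconazole at 30 uM (3.91 ± 0.0869, SD, n = 3), within the spread of myclobutanil (3.90 ± 0.0718) and triadimefon (3.90 ± 0.0496) at 100 uM. Its values were 3.96, 3.96 and 3.81 (Rs256, Rs293, Rs304), against 3.89, 3.69 and 3.39 with DMSO. The groups overlapped, and the difference within a code was 0.0695, 0.264 and 0.418, largest in Rs304, whose DMSO array was the lowest. The change of 0.251 was not called without the block (SE 0.115, limma adjusted p = 0.829) and was called with it (adjusted p = 0.0302), but not without the Rs293 array that stood apart (adjusted p = 0.0989). On the values as deposited it was 1.02 and was not called (SE 0.495, adjusted p = 0.485, and adjusted p = 0.182 with the block). Of the 11 probe sets limma called 2 there with the block and 0 without it (1 had an unadjusted p under 0.05), while 1.81% and 0.0111% of all probe sets were called.

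At 100 uM Apoa4 gave 3.93, 3.96 and 3.82 with myclobutanil and 3.93, 3.93 and 3.85 with triadimefon. The changes of 0.247 and 0.246 were called with the block (adjusted p = 0.0124 and 0.0102) and not without it (adjusted p = 0.486 and 0.392). With the block, 2 of the 11 probe sets were called for myclobutanil, where 8% of all probe sets were called (0.785% without the block, 0.373% higher and 0.412% lower, with 0 of the 11 called and 2 at an unadjusted p under 0.05), and 4 for triadimefon, where 9.97% were. With propiconazole the highest dose did not give the highest mean: it was 3.66 ± 0.252 with DMSO, 3.86 ± 0.136 at 10 uM, 3.91 ± 0.0869 at 30 uM and 3.74 ± 0.173 at 100 uM (SD, n = 3 each). The change at 100 uM was 0.0807 (adjusted p = 0.758, and adjusted p = 0.376 with the block). Apoa4 and Apoa5, neighbours in the genome, had an r of -0.476 over 35 code-centred arrays, with 0.0788 within Rs256 (11 arrays), -0.799 within Rs293 and -0.634 within Rs304 (12 arrays each).

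Apob, the large scaffold protein of VLDL, was not called in any comparison. Its brighter probe set read 3.06, 3.00 and 2.63 with propiconazole at 100 uM (Rs256, Rs293, Rs304), against 3.13, 3.08 and 2.96 with DMSO. Each code was lower (differences of -0.0697, -0.0815 and -0.332), and the groups overlapped. The change was -0.161 (SE 0.135, limma adjusted p = 0.54, and adjusted p = 0.0923 with the block). The dimmer probe set (mean 0.187) disagreed in sign: it read 0.24, 0.23 and 0.25, against 0.08, 0.18 and 0.10 with DMSO, with no overlap and a change of 0.12 (adjusted p = 0.301, and adjusted p = 0.157 with the block).

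Mttp, which lipidates Apob, was lower with propiconazole at 100 uM. Its values were 1.67, 1.63 and 1.37 (Rs256, Rs293, Rs304), against 2.05, 1.90 and 1.67 with DMSO. All 3 codes were lower (differences of -0.374, -0.269 and -0.291), while the groups met at the lowest DMSO array. The change was -0.311 (SE 0.144, limma adjusted p = 0.187) and was called with the block (SE 0.057, adjusted p = 0.000183). On the values as deposited it was -0.304 with the block (adjusted p = 0.0846), a change of the same size with a larger error.

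Of the 3 doses of propiconazole, Mttp was called (with the block) at 100 uM. The means were 1.87 ± 0.193 with DMSO and 1.81 ± 0.162, 1.83 ± 0.243 and 1.56 ± 0.162 at 10, 30 and 100 uM (SD, n = 3 each). The slope was -0.259 per 10-fold dose (limma adjusted p = 0.338, and adjusted p = 0.00161 with the block). With triadimefon and myclobutanil at 100 uM Mttp read 1.93, 1.73 and 1.73, and 1.92, 1.76 and 1.57. Those changes, -0.0761 and -0.118, were not called (adjusted p = 0.468 and 0.235 with the block).

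Apoe, the ligand for receptor uptake, had a probe set at ranks 5 to 19, where normalization sets the values. Its SD over arrays was 0.0553 after normalization and 0.5 as deposited. With propiconazole at 100 uM it read 3.87, 3.81 and 3.84 (Rs256, Rs293, Rs304), against 3.96, 3.89 and 3.96 with DMSO. The groups did not overlap, with ranks 9, 13 and 11 on the arrays of propiconazole, against ranks 5, 8 and 5 on those of DMSO. The change was -0.0987 (SE 0.0474, limma adjusted p = 0.207, and adjusted p = 0.0382 with the block). As deposited it was -0.174 with the block (adjusted p = 0.86), and for triadimefon and myclobutanil at 100 uM the sign of the Apoe change was negative after quantile normalization (-0.09 and -0.0685) and positive as deposited (0.0842 and 0.0867).

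**Figure D3:**
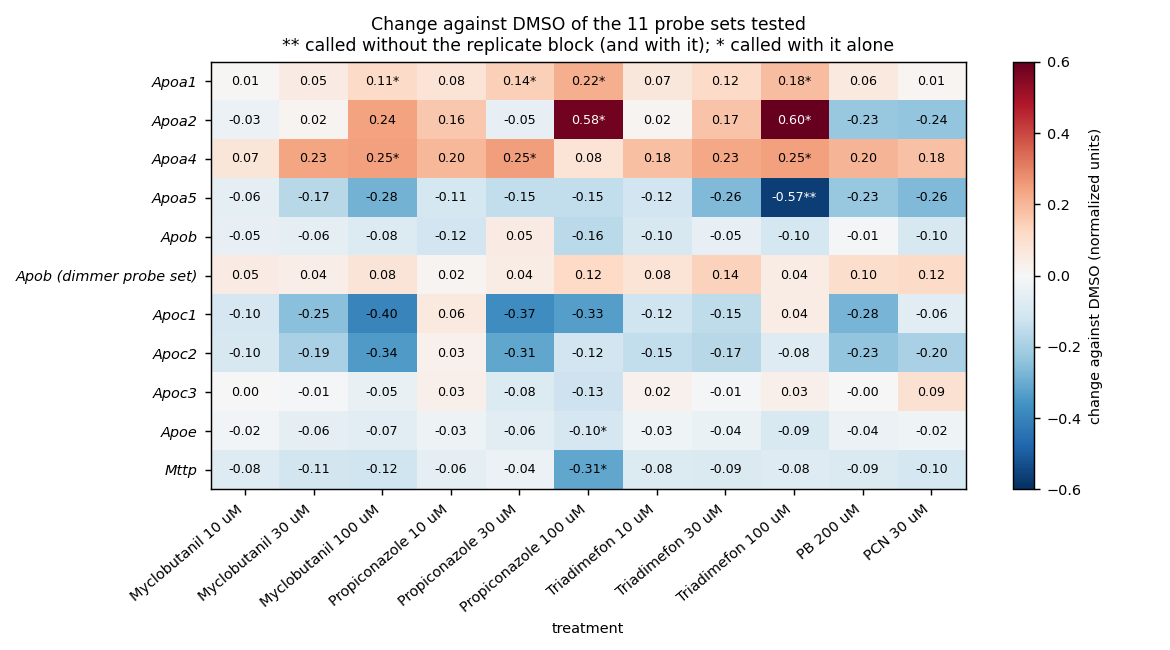
Change against DMSO (normalized log-like units, colour and printed value, fit without the block) of the 11 probe sets tested, in rows, for each treatment, in columns. The PCN column sets arrays without Rs256 against DMSO arrays that include it. Apoa2 is -0.239 there, though PCN read 0.73 and 1.22 (Rs293, Rs304), against 0.67 and 1.15 with DMSO. The mean of Apoc1 is also lower there (1.45 against 1.51), though the same codes read 1.54 and 1.35, against 1.31 and 1.24. A double asterisk marks the 1 call without the replicate block (Apoa5, triadimefon 100 uM, -0.57) and a single one the calls with the block alone. Apoa1 and Apoa4 are above 0 and Apoa5, Apoe and Mttp below 0 in all 11 columns, which share the same DMSO arrays. On the values as deposited the sign turned for Apoa5 (0.165), Apoe (0.671) and Mttp (0.227) with propiconazole at 30 uM, and for Apoe with triadimefon and myclobutanil at 100 uM. For the other 7 columns the signs are given after quantile normalization alone, and they need not hold as deposited. There Apoe read 4.18, 3.83 and 3.98 with phenobarbital (Rs256, Rs293, Rs304), against 3.94, 3.61 and 3.79 with DMSO, higher in each code. With triadimefon at 30 uM the codes did not go one way (4.10, 3.74 and 3.45).

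**Figure D4:**
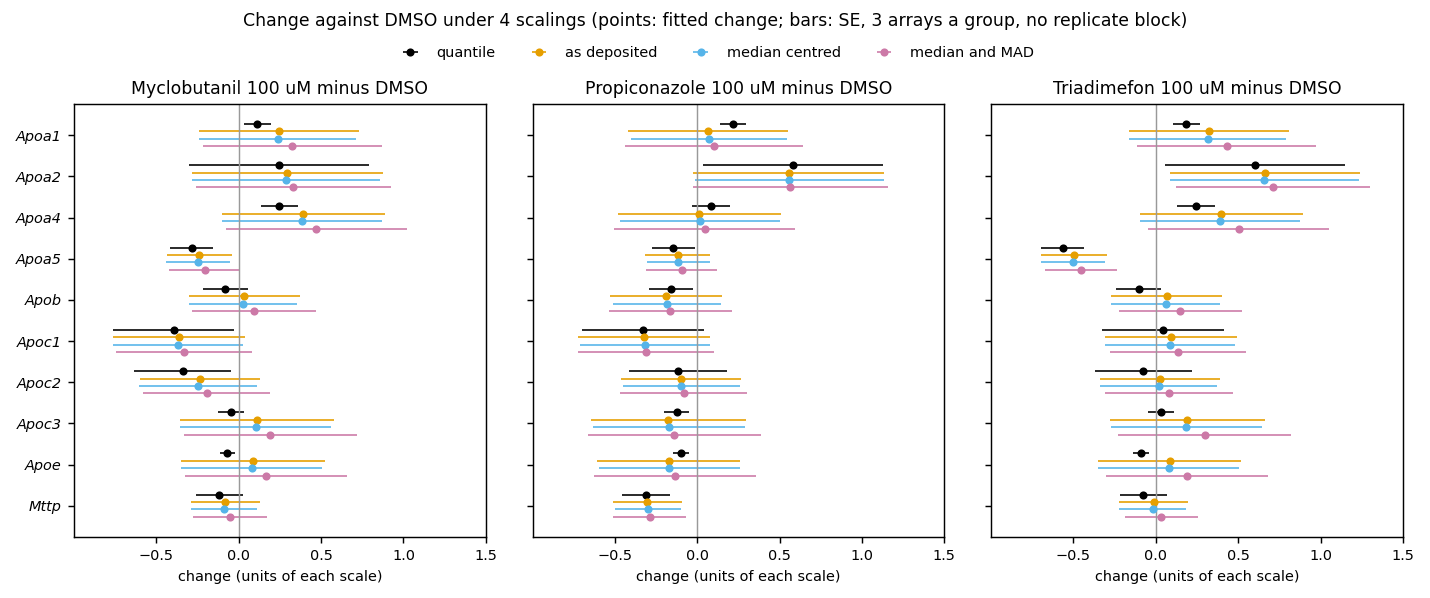
Change against DMSO of each gene's brightest probe set (rows) at 100 uM under 4 scalings (colours): quantile normalization, values as deposited, median centring, and median centring with a common median absolute deviation (MAD). Points are fitted changes and bars SEs of the fit without the block (3 arrays a group). Apoa1, Apoa4, Apoc3 and Apoe have far wider bars outside quantile normalization, while Apoa5 keeps its sign under all 4, and Mttp does too except with triadimefon (0.0338 under the common MAD).

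Between the triazoles, which share the triazole ring and carry a nitrile group (myclobutanil), a dioxolane ring (propiconazole) or a ketone (triadimefon), 9 pairs were compared at matched doses, and limma called 0 of 99 tests without the block (2 had an unadjusted p under 0.05). With the block 3 were called, all at 100 uM. Mttp was lower with propiconazole than with triadimefon (1.67, 1.63 and 1.37, against 1.93, 1.73 and 1.73). All 3 codes were lower, and the difference of -0.235 had a 95% interval of -0.532 to 0.0621 without the block (limma adjusted p = 0.726) and of -0.353 to -0.118 with it (adjusted p = 0.0154). Mttp was also lower with propiconazole than with myclobutanil (-0.193, adjusted p = 0.779, and adjusted p = 0.0446 with the block).

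Apoa5 was higher with propiconazole than with triadimefon by 0.42 units (limma adjusted p = 0.193, and adjusted p = 0.0269 with the block). The values were 1.54, 2.30 and 2.30, against 1.47, 1.80 and 1.60, and the difference was 0.0673 in Rs256, 0.496 in Rs293 and 0.697 in Rs304. In the comparison of propiconazole with triadimefon at 100 uM 0.501% of all probe sets were called (5.23% with the block), and in that of propiconazole with myclobutanil 0.562% (5.84% with the block). Triadimefon and myclobutanil at 100 uM gave 0 calls among the 11 probe sets, at 0% of all probe sets and 0.0167% with the block. The 95% interval for Apoa5 (triadimefon minus myclobutanil) was -0.547 to -0.0141 without the block and -0.51 to -0.0515 with it. For Apoa2 it was -0.765 to 1.49 without the block and -0.0102 to 0.732 with it, and for Mttp -0.255 to 0.339 and -0.0754 to 0.159.

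Of the 33 slope tests limma called 0 without the block (1 had an unadjusted p under 0.05) and 3 with it: Apoa1 and Mttp for propiconazole and Apoa5 for triadimefon. The Apoa1 slope was 0.136 per 10-fold dose (limma adjusted p = 0.384, and adjusted p = 0.00544 with the block), and its sign turned to -0.251 on the values as deposited. Among all probe sets 7.94% were called for the propiconazole slope (22.3% with the block), 0.0612% for the triadimefon slope (2.81% with the block) and 0.206% for the myclobutanil slope (5.02% with the block).

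With the positive controls limma called 0 of the 11 probe sets, with or without the block. Among all probe sets 0.00556% were called for each without the block, and 0.0167% for phenobarbital and 0.0223% for PCN with it. An unadjusted p under 0.05 was found without the block for 0 of 11 probe sets with either, and with the block for 1 with phenobarbital and 2 with PCN. Apoa4 read 3.96, 3.91 and 3.72 with phenobarbital (Rs256, Rs293, Rs304), and 3.82 and 3.85 with PCN (Rs293, Rs304), against 3.89, 3.69 and 3.39 with DMSO. The changes were 0.205 and 0.177, higher in every code measured and overlapping with DMSO. The PCN mean lacks Rs256, the code of the highest DMSO array (3.89). Its change is therefore not on the same codes as that of phenobarbital, and their sizes cannot be compared. Apoa5 read 1.96, 1.92 and 2.00 with phenobarbital, below all DMSO arrays, and 2.14 and 1.71 with PCN. Its changes were -0.228 and -0.264 (limma adjusted p = 1 for both). At 10 uM of the 3 triazoles, and at 30 uM of myclobutanil and triadimefon, 0 of the 11 probe sets were called with or without the block, in comparisons where at most 0.0278% of all probe sets were called without it and at most 0.868% with it.

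Levels of Apoa2, Apoc1 and Apoc2 differed more between codes than between treatments. Over the 11 groups with all 3 codes Apoa2 averaged 2.02 ± 0.438 in Rs256, 0.664 ± 0.278 in Rs293 and 1.35 ± 0.226 in Rs304 (SD, n = 11 each). Rs293 was the lowest code in 11 of 11 groups. The range between code means, 1.36, lay at percentile 99.9 of the 17971 probe sets tested, whose median was 0.0903, while the 12 group means of Apoa2 spanned 0.842. Apoc1 and Apoc2 had ranges of 0.807 and 0.685 (percentiles 99.4 and 98.9) between codes, against 0.454 and 0.365 between groups, with Rs293 lowest in 9 and 10 of 11 groups.

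Mttp had a range of 0.34 between codes (percentile 94), Apob 0.296 and Apoa4 0.26, with Rs304 lowest in 9, 11 and 11 of 11 groups. Apoa5 had 0.158. The ranges of Apoa4 (0.26), Apoa1 (0.193), Apoe (0.0845) and Apoc3 (0.083) are those of top ranks, whose values normalization sets. They do not measure how far the levels of these genes differed between codes. The residual SD of Apoa2, Apoc1, Apoc2 and Mttp fell to 0.239, 0.288, 0.202 and 0.0726 with the block, against 0.706, 0.477, 0.38 and 0.185 without it. For Apoa5 it was 0.147 against 0.166.

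**Figure D5:**
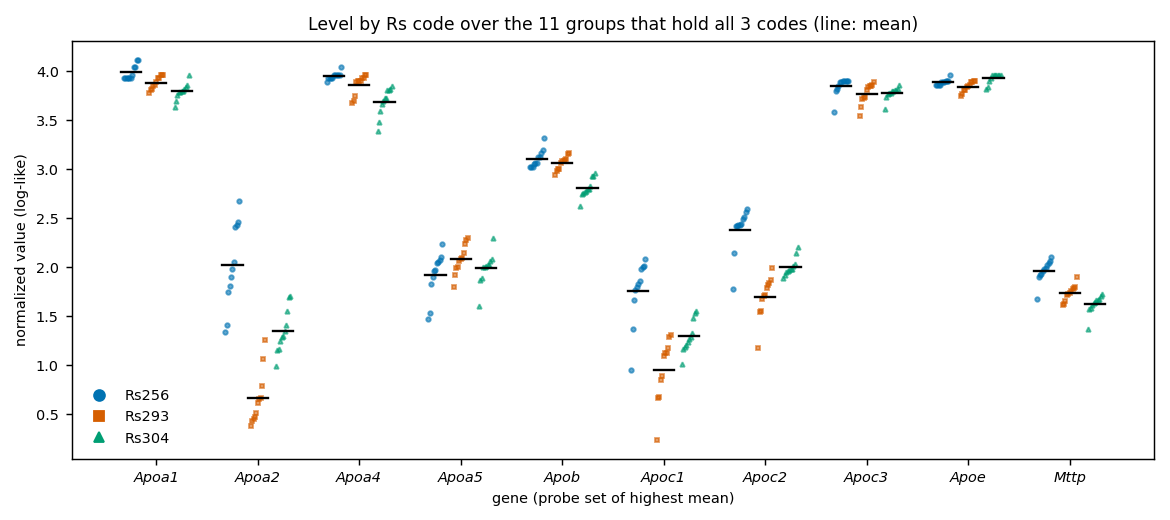
Normalized value (log-like units) of each gene's brightest probe set on the arrays of the 11 groups that hold all 3 Rs codes, sorted by value within a code; black bars are means over 11 arrays. Apoa2, Apoc1 and Apoc2 are highest in Rs256 (2.02, 1.76 and 2.39) and lowest in Rs293 (0.664, 0.951 and 1.70), while the code means of Apoa5 span 0.158. The narrow spread of Apoc3 and Apoe is that of top ranks after normalization.

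The genes around these 10 were read from lists of other lipoprotein genes at 100 uM, where 11.3%, 1.55% and 0.785% of all probe sets were called with propiconazole, triadimefon and myclobutanil (27.1%, 9.97% and 8% with the block). The list of other apolipoproteins (16 listed, 10 tested) also held genes that are not plasma apolipoproteins, such as Lcn2 and Naxe. Its counts and median are therefore not of apolipoproteins alone. Of the 10, Apoh, a phospholipid-binding plasma protein, fell with propiconazole by 0.309 (SE 0.0599, limma adjusted p = 0.000996) and with triadimefon by 0.279 (adjusted p = 0.0146). It was the only call of that list without the block. With the block 1 rose and 5 fell with propiconazole, 1 rose and 1 fell with triadimefon, and 3 fell with myclobutanil. Among them, Lcn2, a lipocalin, rose with propiconazole (0.746, adjusted p = 0.00112, and adjusted p = 0.38 without the block) and with triadimefon (0.69, adjusted p = 0.0068, and adjusted p = 0.657 without it). Apom, an HDL protein that carries sphingosine 1-phosphate, fell with propiconazole (-0.324, adjusted p = 0.00727, and adjusted p = 0.281 without the block). The list's median change was -0.145, -0.087 and -0.126 with propiconazole, triadimefon and myclobutanil, against 0.00366, 0.0047 and 0.00526 over all probe sets. The median of the 14 hepatocyte markers was also below 0, at -0.115, -0.0713 and -0.0632, and its part in the result was not tested. Of 27 genes of assembly and secretion tested (31 listed), 2 rose and 1 fell with each triazole without the block, the same 3 genes each time. With the block 4 rose and 5 fell with propiconazole, 5 rose and 4 fell with triadimefon, and 3 rose and 1 fell with myclobutanil. The phosphatidylcholine transfer protein Pctp was among these with each triazole (0.317, 0.294 and 0.265). Scd2, a desaturase that makes monounsaturated fatty acids, rose by 2.01, 2.08 and 1.74 with propiconazole, triadimefon and myclobutanil. Acat2, named in the list but in this annotation the cytosolic acetoacetyl-CoA thiolase, rose by 0.827, 0.647 and 0.606. Ces1d, a carboxylesterase that in mouse mobilises stored triglyceride for VLDL, fell by 1.73, 1.52 and 1.56.

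Of the 5 genes of Apob messenger editing, which makes the short form Apob48, A1cf fell by 0.405 with propiconazole at 100 uM (limma adjusted p = 0.0257) and the editing enzyme Apobec1 rose by 0.257 (adjusted p = 0.00753). With the block A1cf was also called with triadimefon (-0.381, adjusted p = 0.000448) and myclobutanil (-0.282, adjusted p = 0.00758), and Apobec1 with triadimefon (0.188, adjusted p = 0.0256). The arrays do not measure the edited base. Of 18 genes of HDL remodelling and uptake tested (27 listed), 3 fell and 1 rose with propiconazole, where 5.53% of all probe sets were called lower and 5.79% higher (13.4% and 13.7% with the block). With the block 6 fell and 4 rose with propiconazole, 3 fell and 2 rose with triadimefon, and 4 fell and 3 rose with myclobutanil, while without it 1 fell and 0 rose with triadimefon and with myclobutanil alike. Angptl4, which blocks lipoprotein lipase, fell by 1.86 with propiconazole, by 0.966 with myclobutanil and by 0.937 with triadimefon. Lcat, which esterifies HDL cholesterol, fell by 0.874 and the hepatic lipase Lipc by 0.587, while the HDL esterase Pon1 rose by 0.813 with propiconazole. With the block Lcat and Lipc were also called with triadimefon (-0.597 and -0.242, adjusted p = 0.00216 and 0.011) and with myclobutanil (-0.645 and -0.358, adjusted p = 0.00158 and 0.000633), and Pon1 with myclobutanil (0.373, adjusted p = 0.0487).

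Of 28 transcription factors that act on these genes, 5 fell and 1 rose with propiconazole at 100 uM (8 and 3 with the block), beside 5.53% and 5.79% of all probe sets (13.4% and 13.7% with the block). Creb3l3, a membrane-bound factor that in mouse liver drives Apoa4, Apoa5 and Apoc2, fell by 1.36 (limma adjusted p = 0.000376), and with myclobutanil it changed by -0.724 (adjusted p = 0.2, and adjusted p = 0.00755 with the block). Foxo1, which in mouse raises Mttp and Apoc3, fell by 0.438, Prox1 by 0.301 and Nr2f2 by 0.269. The other two calls, named after their values were seen, were Nr5a2 (-0.226) and Esrra (0.182). Prox1 also fell with myclobutanil, by 0.25, the only call there without the block (3 fell and 1 rose with it), and with triadimefon 0 of the 28 were called (2 fell and 1 rose with the block).

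The genes most like each of the 10 were those with the highest Pearson r over 35 code-centred arrays among 10492 genes. Mttp was closest to Hsd17b4 (0.844) and Eci2 (0.842), enzymes of fatty acid oxidation in the peroxisome. Apoa4 was closest to Gstm3 (0.797) and Cyp3a23-3a1 (0.784), enzymes of drug metabolism. Apoc1 was closest to Cox8a (0.911) and Atox1 (0.906), Apoc2 to Kgd4 (0.91) and Mgst2 (0.909), and Apoc3 to Tmem205 (0.9) and Timm10b (0.892). Apoa2 was closest to Atp6v1f (0.886) and Cstb (0.861), Apoa1 to Tmem41b (0.839) and Upp1 (0.836), and Apob to Zc3h11a (0.823) and Zfp260 (0.796). Apoa5 was closest to Ctsh (0.774) and Hsd17b13 (0.769), a lipid droplet enzyme, and Apoe to Mtus1 (0.786) and Plg (0.756). With so many genes compared, a high r is found for any of them, and no test was made.

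RNA quality was read from the control probe sets at the 3′ and 5′ ends of Actb and Gapdh. The Actb 3′ minus 5′ difference at 100 uM was 0.648 with propiconazole, 0.852 with triadimefon and 0.723 with myclobutanil, against 0.766 with DMSO. The exact permutation test (two-sided) gave p = 0.1, 0.4 and 0.7 (n = 3 and 3, where 0.1 is the smallest p possible). Over 35 code-centred arrays its r with the 11 probe sets lay between -0.39 (the dimmer one of Apob) and 0.399 (the brighter one of Apob). For the Gapdh difference r lay between -0.487 (Apoe) and 0.322 (Apoa2), with -0.349 for Apoa5. The part of RNA quality in the changes was not tested.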

How the data were processed

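Per the labels, total RNA of each culture was copied with an oligo-dT primer into biotin-labelled cRNA and hybridized to 1 array. The authors deposited 1 score per probe set and array on a log-like scale. Its base, the summary of probes and the normalization are not given in the sources used here. Probe sets were named from the platform's annotation table, and symbols updated by gene identifier (20758 probe sets matched).

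All 31099 probe sets were quantile normalized. After 57 control probe sets were dropped, those above the array median in at least 2 of 35 arrays were kept (17971). limma 3.58.1 in R 4.3.3 (lmFit, contrasts.fit, eBayes) fitted 1 mean per group over all 35 arrays without covariates. P-values (two-sided) were adjusted by Benjamini and Hochberg within each of 23 comparisons, and a probe set was called below 0.05. No fit dropped or imputed a sample, except where leaving arrays out is stated. The fit was tested on simulated data.

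The Rs code was a fixed block in an alternative fit. Once each group's mean was subtracted, same-code arrays correlated at r from 0.062 to 0.938 (187 pairs, median 0.612). Those of the groups compared gave 0.299 to 0.938 (86 pairs, median 0.681). Arrays of different codes gave -0.725 to 0.335 (374 pairs, median -0.347). The ranges overlap but the medians lie apart, so the codes were taken to pair the samples. Once a group's mean is subtracted its arrays cancel out, so positive values within a code force negative ones between codes. The negative median is therefore no separate evidence of pairing. The blocked value is given beside each result on the 10 genes whose call it changes. For the gene lists the blocked counts are given, with values for some genes, of which Cd14, Dcn, Vim, Tagln, Vil1, Lcn2, Apom and Pctp, called with the block alone, were chosen after their values were seen.

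The 10 genes, the gene lists and the tests were chosen with earlier results of these data known. Each gene's brightest probe set was described in full in the comparison with its lowest p against DMSO. From each list the called genes at 100 uM were named, up to the 4 largest changes. The 2 genes of highest r with each of the 10 were named. Alternatives were 3 other scalings, the block, 1 probe set per gene, no filter on dim probe sets, only the groups compared, and leaving out codes and arrays. The block combined with the scalings, left-out arrays and other fits was added after seeing the data. Promoter sequences and gene order came from RefSeq (GRCr8). Files name no build, so no gene coordinates are given beyond the promoters. The number of arrays limits the precision.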

Additional observations from a re-analysis of the deposited data

How the results depend on the processing

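The replicate block moved the counts of called probe sets most. It gave 2 calls for the triazoles at 10 and 30 uM, 2 for myclobutanil, 4 for propiconazole and 4 for triadimefon at 100 uM, 3 for the pairs of triazoles and 3 for the slopes, against 0, 0, 0, 1, 0 and 0 without it. The triadimefon count of 1 was 0 on the values as deposited, after median centring, after median centring with a common median absolute deviation, and with only the groups compared. Leaving out 1 code or 1 array gave counts of 0 to 1 for propiconazole at 100 uM, 0 to 1 for triadimefon at 100 uM and 0 to 1 for the pairs of triazoles. The Apoa5 call with triadimefon was lost without the DMSO array of Rs256 or of Rs293, and without the triadimefon array of Rs256 or of Rs304. Apoa1 with propiconazole at 100 uM was called without the Rs256 arrays (0.191, limma adjusted p = 0.0476) and without the DMSO array of Rs256 (0.284, adjusted p = 0.0408). The change of Apoc1 with myclobutanil at 100 uM, -0.396, lay between -0.722 and 0.0389 when 1 code or array was left out, and changed sign to 0.0389 without the Rs293 array of that group alone. The blocked propiconazole slope of Apoa1, 0.136, turned to -0.251 as deposited, -0.244 after median centring and -0.201 with a common median absolute deviation. The cause of these changes was not tested.

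Of the 160 values of the 10 changes described in full, 141 kept direction and side of the threshold, 11 lost the call, 7 gained it and 1 changed sign. All 11 losses were of Apoa5, the only 1 of the 10 changes called in the fit without the block. For the other changes, keeping the side of the threshold meant staying uncalled. Of the 18 calls with the block, 18 held with 1 probe set per gene, 16 without the Rs293 array of propiconazole at 30 uM, 10 without Rs256, 10 without Rs293, 3 without Rs304, 8 with only the groups compared and 0 under each other scaling. Leaving out a code leaves 2 arrays a group. Signals near the top of the range bound what Apoa1, Apoa4, Apoc3 and Apoe can show, and the dimmer probe set of Apoe lay under the median on all arrays.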
